A study of Mus musculus with 6 samples.

Results

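The stefin A genes form a cluster on mouse chromosome 16 and encode small intracellular inhibitors of cysteine proteases. The 9 of them described here do not make up the whole cluster, since other genes and transcripts lie in or beside it. Its expression was followed in N18-Fms cells (N18-CFMS in the sample labels) left unstimulated (Control) or stimulated with recombinant mouse CSF-1 at 100 ng/mL for 24 h (24H CSF1) or 48 h (48H CSF1). The members were found by gene name, 9 of 36163 genes named on the arrays, and every one of them had a single probe. They were chosen by earlier fold changes of these same arrays against Control, so that their differences from Control are given as a description, with no test.

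N18 is a luciferase-expressing clone of C2H, an epithelial line cloned from a prostate tumor of the TRAMP mouse. All 3 groups carry the same changes, namely the luciferase plasmid, its neomycin resistance and a murine c-fms cDNA, which encodes the CSF-1 receptor and was brought in by a retrovirus before receptor-positive cells were sorted. N18 is thus 1 clone and N18-Fms a sorted population of its transduced cells. In the study, the untransduced N18 clone secreted CSF-1 of its own, and Control means that no CSF-1 was added. All groups were grown with serum and dihydrotestosterone. Each group held 2 single-color Agilent arrays, with RNA from 2 independent experiments. The labelled times are used here, while the written methods of the study give shorter ones.

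Stefins are the cystatins that stay inside the cell. They plug the active site of papain-like cysteine proteases, above all cathepsins B, H, L and S, which work in lysosomes and endosomes and can leak or be secreted. Human cells have a single stefin A gene (CSTA), a component of the cornified envelope of skin, whereas the mouse carries a tandem array of closely related copies known from neutrophils and skin. In prostate tumors the balance between cathepsins and their inhibitors is studied for its link to invasion.

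Levels are given as the log2 of the spot signal minus the 75th percentile of its array, so that 0 is the signal at that percentile. Between 58.7% and 72.0% of the 59305 spots per array were well above background by the scanner software, and 0 were saturated. The 24H CSF1 replicate 1 array lay on another slide than the other 5. The transduced receptor gene Csf1r lay between 4.88 and 5.34 on all 6 arrays. Of 14 prostate epithelial markers, 9 were tested; Trp63 was well above background on all 6 arrays, whereas Cdh1, Cldn3 and Foxa1 were so on none.

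The genes carry old names on the arrays. In the RefSeq mouse table, Gm5483 is now Cstdc4, Gm5416 is Csta3, 2010005H15Rik is Csta2, BC100530 is Cstdc5 and BC117090 is Cstdc6, while Stfa1, Stfa2, Stfa2l1 and Stfa3 kept their names. By the probe positions in the array files (mm9), the 9 probes spanned 290.6 kb. Stfa2l1, Gm5483, Gm5416, 2010005H15Rik and Stfa1 followed each other on the plus strand, and BC117090, BC100530, Stfa2 and Stfa3 on the minus strand.

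Because the copies resemble each other, what a probe can hybridize to bears on every value. Among 55681 probes compared with the 9 members' 60-base probes, exact shared runs of at least 20 bases joined 3 pairs. The probes that show this are printed with the shared run in capitals. That of Gm5416, printed too, shared no such exact run with any other probe on the array. Likeness broken by mismatches was not searched for. As printed, the Gm5416 probe resembles that of Stfa2l1 over such a broken stretch, so that it is not shown to be specific to its copy.
Stfa2l1 (run shared with ENSMUST00000077110): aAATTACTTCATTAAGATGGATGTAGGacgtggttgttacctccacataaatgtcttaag
ENSMUST00000077110 (run shared with Stfa2l1): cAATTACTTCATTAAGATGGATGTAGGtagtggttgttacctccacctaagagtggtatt
Gm5483 (run shared with Stfa3): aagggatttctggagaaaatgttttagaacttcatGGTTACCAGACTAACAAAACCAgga
Stfa3 (run shared with Gm5483): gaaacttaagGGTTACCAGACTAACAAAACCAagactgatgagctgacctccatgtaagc
BC100530 (run shared with 2010005H15Rik): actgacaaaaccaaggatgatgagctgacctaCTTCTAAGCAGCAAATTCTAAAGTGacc
Gm5416 (no shared run): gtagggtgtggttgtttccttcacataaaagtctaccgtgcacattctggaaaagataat

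The run was 26 bases for Stfa2l1 and ENSMUST00000077110, a transcript without a name in the RefSeq table used here, and 50 of their 60 bases matched. It was 22 bases for Gm5483 and Stfa3, and 25 bases for BC100530 and 2010005H15Rik. The array files also list the RefSeq transcript of Stfa2 under the Stfa2l1 probe, 1 transcript under both Stfa1 and BC117090, and another under both BC117090 and BC100530. How far a transcript of one copy contributed to the signal of another was not tested, and values of single copies are uncertain to that extent.

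CSF-1-stimulated cells had much higher signals than Control cells for 5 of the 9 stefin A genes, Gm5483, Stfa2l1, BC100530, Gm5416 and 2010005H15Rik, and a modestly higher signal for Stfa3. Stfa2 did not follow, and Stfa1 and BC117090 stayed at or near background. Among the 7 members with a measurable signal, 6 met the limits used for calls (unadjusted p under 0.05 and at least 2-fold) as higher at 24 h and the same 6 at 48 h. Over the 24643 genes tested, 5.86% were called higher and 1.82% lower at 24 h (1444 and 449 genes), and 4.66% higher and 1.82% lower at 48 h (1148 and 449 genes). These splits moved with the scaling, to 924 higher and 1018 lower at 24 h with median centring and 937 and 615 with quantile normalization, and to 1023 and 645 at 48 h with median centring. Since these contrasts chose the members, nothing is read from their count. The median log2 fold change of the 7 was 5.34 at 24 h and 7.81 at 48 h, beside 0.04 and -0.04 over all genes tested. Of the 7, 3 were not well above background on at least 1 Control array, and with these at their lower bound the median was 4.94 and 7.81.

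**Figure D1:**
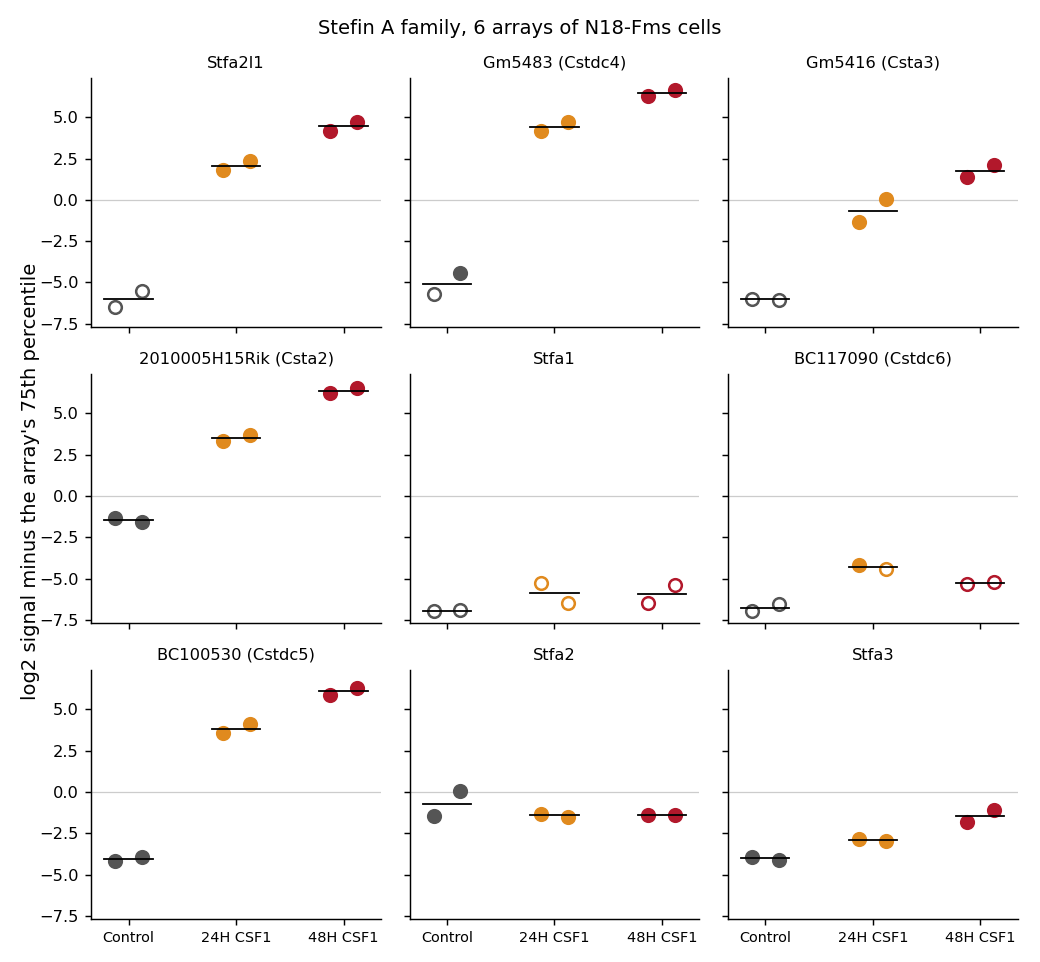
Level of each stefin A gene on the 6 arrays, as log2 signal minus the array's 75th percentile, in order along the cluster, with group means as bars. Filled points were well above background and open points were not. Gm5483 reached 6.27 and 6.66 at 48 h from -5.70 and -4.43 in Control, while Stfa2 showed its highest value, 0.03, in Control replicate 2.

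Gm5483, one of the Cstdc copies, was near background in Control and bright after stimulation. Its levels were -5.70 and -4.43 on the Control arrays, of which only replicate 2 was well above background, 4.15 and 4.70 at 24 h and 6.27 and 6.66 at 48 h. The groups did not overlap and the order was Control, 24 h, 48 h. The signal was at least 517-fold higher at 24 h and at least 2130-fold higher at 48 h, where the Control level is taken as no lower than the dimmest probe well above background on that array. Normexp is a model-based background correction, run here with an offset of 50 added to every signal. After it and scaling to the 75th percentile, the fitted log2 fold change of Gm5483 was 7.01 and 9.06, below these bounds. Its Control signals were 10.6 and 28.4. Such an offset alone shrinks fold changes from low signals, here and wherever normexp is given below. How much of the shrinkage came from the offset was not tested.

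Stfa2l1, named for its likeness to Stfa2, was not well above background on either Control array, where it read -6.48 and -5.52. It stood at 1.81 and 2.35 at 24 h and at 4.16 and 4.72 at 48 h. This was at least 112-fold higher at 24 h and at least 574-fold higher at 48 h, with no overlap between any of the 3 groups. After the same normexp correction the fitted log2 fold change was 4.96 and 7.32, again smaller than the bounds. Its probe crosses an intron, since its 60 bases cover 1759 bases of the genome.

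BC100530 was well above background on all 6 arrays, so that its fold change is not a bound. It read -4.16 and -3.95 in Control, 3.58 and 4.08 at 24 h and 5.85 and 6.30 at 48 h. The log2 fold change was 7.89 at 24 h and 10.13 at 48 h (SE 0.24), and the replicates of a group differed by far less than the groups did. After normexp it was 6.21 and 8.43.

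2010005H15Rik had 10 spots per array and read -1.32 and -1.56 in Control. It read 3.32 and 3.67 at 24 h and 6.22 and 6.51 at 48 h, a log2 fold change of 4.94 and 7.81 (SE 0.19). Its repeated spots varied with a coefficient of variation between 1.97% and 14.0%. All 6 arrays were well above background and the groups did not overlap.

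Gm5416 was not well above background in Control (-5.99 and -6.03). Its 24 h arrays differed by more than those of any other member tested, at -1.37 and 0.04, and its 48 h arrays read 1.38 and 2.13. The signal was at least 16.7-fold higher at 24 h and at least 89.5-fold higher at 48 h, while after normexp the fitted log2 fold change was 2.47 and 4.69, smaller than these bounds.

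Stfa3 was low but above background on all 6 arrays. It read -3.96 and -4.10 in Control, -2.83 and -2.98 at 24 h and -1.79 and -1.08 at 48 h. The log2 fold change was 1.12 at 24 h and 2.59 at 48 h (SE 0.25), and the 24 h difference fell below 2-fold with 4 of the other normalizations (0.81 with quantile normalization, 0.84 with median centring, 0.51 and 0.34 after normexp background correction). Its groups were ordered as those of the 5 strongly higher genes, without overlap.

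Stfa2 gave -1.45 and 0.03 in Control, -1.31 and -1.51 at 24 h and -1.41 and -1.43 at 48 h. Control replicate 2 stood apart and the other 5 arrays lay within a narrow band, so that the groups overlapped. The log2 fold change was -0.70 at 24 h and -0.71 at 48 h (SE 0.46), neither called. Without Control replicate 2 both were close to 0 (0.03 and 0.03), and without Control replicate 1 they were -1.44 and -1.45 and met the limits for a call.

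Stfa1 was not well above background on any array, and BC117090 only on 24H CSF1 replicate 1. Neither was tested and no fold change is given. The stefin A gene Csta (Csta1 in RefSeq), which is no member and has its probe 40.0 kb before the cluster, was well above background only on 24H CSF1 replicate 2.

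All 4 stimulated arrays lay above both Control arrays for 6 of the 7 members tested, and so they did for 18% of all genes tested. The 3 groups were ordered Control, 24 h, 48 h without overlap for the same 6 members and for 3.87% of all genes tested. Across the 6 arrays, each of these 6 had a Pearson r of 0.93 or more with the mean of the 7, a mean that includes the gene itself, and Stfa2 had -0.56. The points share the arrays and the group differences that chose the genes, and nothing is read from these values.

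The same 6 genes had a higher signal after 48 h of stimulation than after 24 h. This contrast did not itself choose them. It is the difference between the 2 contrasts that did, on the same arrays, so that it is not independent of the choice and its p-values describe. The log2 fold change was 2.87 for 2010005H15Rik, 2.42 for Gm5416, 2.36 for Stfa2l1, 2.24 for BC100530, 2.04 for Gm5483 and 1.47 for Stfa3, each at an unadjusted p under 0.05 by limma. Both 48 h arrays lay above both 24 h arrays for each of these 6 genes. Stfa2 differed by -0.01 between the times. Over all genes tested, 0.868% were called higher and 1.4% lower at 48 h than at 24 h (214 and 346 genes), a balance that turned to 331 higher and 138 lower with quantile normalization, 383 and 190 with median centring and 137 and 25 after normexp. The median log2 fold change over all genes was -0.08, beside 2.24 over the 7 members.

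After Benjamini-Hochberg adjustment over all 24643 genes, limma called 0 of them between 48 h and 24 h, and 3355 had an unadjusted p under 0.05. The lowest adjusted p among the members was 0.104, for 2010005H15Rik and BC100530. Between 24 h and 48 h, 6 of the 7 members therefore passed the limits without adjustment and none passed the adjusted test at the main setting. The adjusted p passed 0.05 for 6 of the 7 members after normexp with quantile normalization, for 5 after normexp with the 75th percentile and for 4 with an intensity trend in the prior spread. It passed for 1 member under 3 other alternatives and for 0 under the remaining 13 of the 19 run.

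The upstream sequences were compared because the copies that differed in signal lie in one tandem array. Of the 9 members, 8 have an entry in the RefSeq promoter table (GRCm38.p6). The 250 bases before the annotated start were aligned in all pairs. That of 2010005H15Rik shared between 46.5% and 49.5% of aligned positions with the others, which among themselves shared between 52.2% and 89.4%. The identity that unrelated sequences reach in such a gapped alignment was not measured, so that the lower values need not mean likeness. Stfa2l1 and Stfa2, the first with a much higher signal at both times and the other not, were the most alike pair at 89.4%, with 19 mismatches and 8 gap positions. Since the array files list the Stfa2 transcript under the Stfa2l1 probe, the signals may not fully separate these 2 genes. Stfa1, at background on all arrays, and Stfa3 shared 83.5%.

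The longest run of bases found in every upstream sequence but that of 2010005H15Rik had 12 bases and is in capitals in the 150 bases before the start of 5 genes, which set the strongly higher Stfa2l1, Gm5483 and BC100530 beside Stfa3 and Stfa2.
Stfa2l1 (chr16:36156661-36156810, plus strand): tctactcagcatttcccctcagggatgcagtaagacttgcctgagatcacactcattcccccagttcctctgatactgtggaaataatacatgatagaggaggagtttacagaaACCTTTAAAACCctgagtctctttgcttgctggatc
Stfa2 (chr16:36408364-36408513, minus strand): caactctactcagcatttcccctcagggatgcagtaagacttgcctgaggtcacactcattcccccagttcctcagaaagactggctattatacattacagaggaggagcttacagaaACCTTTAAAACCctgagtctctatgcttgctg
Gm5483 (chr16:36184062-36184211, plus strand): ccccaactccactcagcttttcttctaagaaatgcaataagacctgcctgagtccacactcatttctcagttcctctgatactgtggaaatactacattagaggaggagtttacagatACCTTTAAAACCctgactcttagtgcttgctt
BC100530 (chr16:36367571-36367720, minus strand): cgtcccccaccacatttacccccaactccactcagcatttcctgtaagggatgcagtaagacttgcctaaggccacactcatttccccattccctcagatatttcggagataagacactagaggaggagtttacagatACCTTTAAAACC
Stfa3 (chr16:36455393-36455542, minus strand): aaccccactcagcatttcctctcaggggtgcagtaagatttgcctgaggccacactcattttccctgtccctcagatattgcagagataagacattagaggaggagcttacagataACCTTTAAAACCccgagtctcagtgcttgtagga

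The run stood in 7 of the 8 members' sequences and, on either strand, in 11 of all 32851 upstream sequences in the table. Of the 4 that are not members, 1 is Cstdc3, another cystatin gene of the cluster. The run was present upstream of genes with a much higher signal, of Stfa3, and of Stfa2 and Stfa1. It ended between 0 and 68 bases before the annotated start, so that the starts themselves are annotated at different places relative to it.

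Motifs were searched on both strands of the same 250 bases. The STAT-type GAS motif (TTCNNNGAA) was in the sequence of Gm5483 alone among the 8 and in 7.02% of all. The C/EBP motif (TTGCNNAA) was in those of Gm5416, Stfa1 and BC100530 and in 9.56% of all. The core of the interferon-type ISRE (TTTCNNTTT) was in none of the 8 and in 9.37% of all. Neither was the AP-1 motif TGANTCA, which 6.75% of all held. The same was true of the ETS motif AGGAAGT, held by 7.69%, and of the TATA box letters TATAAA, held by 12.4%. Overlaps between motifs were not removed, and a match or its lack describes these windows only.

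**Figure D2:**
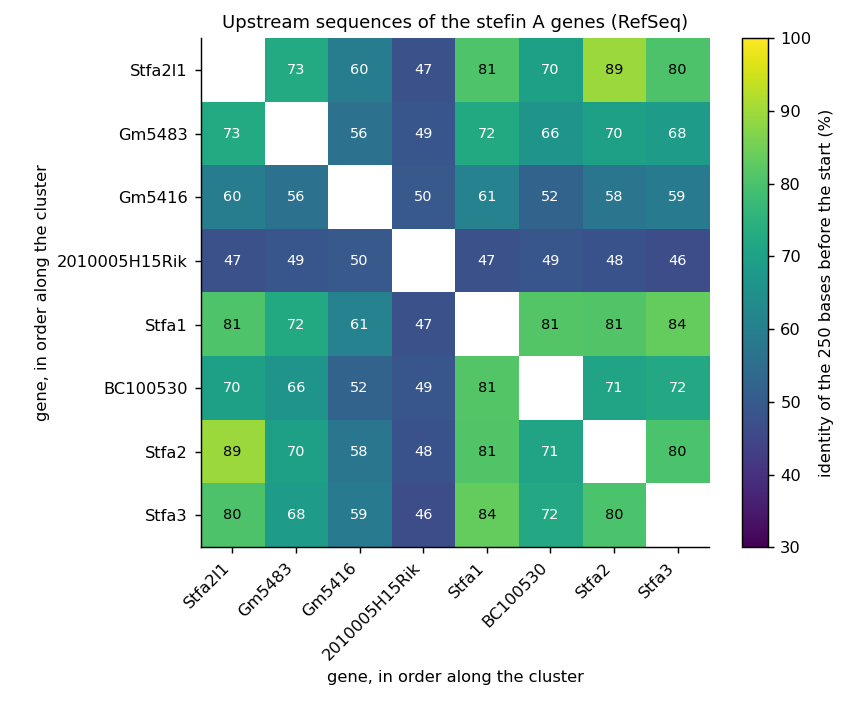
Percent identity between the 250 bases before the annotated start of 8 stefin A genes, each cell 1 pair, with genes in their order along the cluster. The pair of Stfa2l1 and Stfa2 is the most alike at 89.4%, and 2010005H15Rik stays below 50% with each of the others.

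Around the cluster, 39 other named genes have a probe within 1 Mb of it or inside it, and 24 of them were tested. At each time, 6 were called higher and 1 lower. Over all genes tested, 5.86% were called higher at 24 h and 4.66% at 48 h, and 1.82% lower at each time. The same shares stand beside the list counts below. The nearest neighbour tested, ENSMUST00000077110 at 22.4 kb before the cluster, has the probe that resembles that of Stfa2l1. It was not well above background in Control (-7.04 and -6.99), stood at 1.66 and 2.19 on the 24 h arrays, reached 3.98 and 4.56 on the 48 h arrays, and was at least 101-fold and 511-fold higher (adjusted p = 0.000845 and 0.000471 by limma). It was also the only one of the 24 called higher at 48 h than at 24 h.

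Further off on the same side, Parp14 and Parp9, which encode ADP-ribosyltransferases of the interferon response, and Dtx3l, the ubiquitin ligase that partners Parp9, also rose. Parp14 was at least 51.3-fold and 105-fold higher (adjusted p = 0.0088 and 0.0058 by limma), with 1 Control array not well above background. Dtx3l rose by 3.13 and 3.88 and Parp9 by 3.43 and 3.74 on the log2 scale, with adjusted p-values by limma between 0.0021 and 0.0042.

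Other genes tested between these and the cluster showed smaller differences. Fam162a, a hypoxia-responsive mitochondrial gene 116 kb before the cluster, gave 0.69, not called, and rose by 1.37 at 48 h (adjusted p = 0.0037 by limma). Ccdc58 at 68.0 kb differed by 0.18 and -0.17. Wdr5b was called lower, at least 2.04-fold at 24 h and by a log2 fold change of -1.24 at 48 h, but its adjusted p was 0.14 and 0.15 by limma.

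On the other side, TC1713419 at 118 kb after the cluster was at least 2.63-fold higher at 48 h (adjusted p = 0.0897 by limma). The next genes tested were A_55_P2106827, a probe without a gene name, at -0.25 and -0.50, and Eaf2 at 0.19 and 0.22, none called. Stxbp5l, on this side (at least 2.15-fold), and Adcy5, on the other at 855.7 kb before the cluster (at least 1.5-fold), were called higher at 24 h alone; the difference between the times was not called for either. Casr and Cd86, which lie after the cluster, were not tested.

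**Figure D3:**
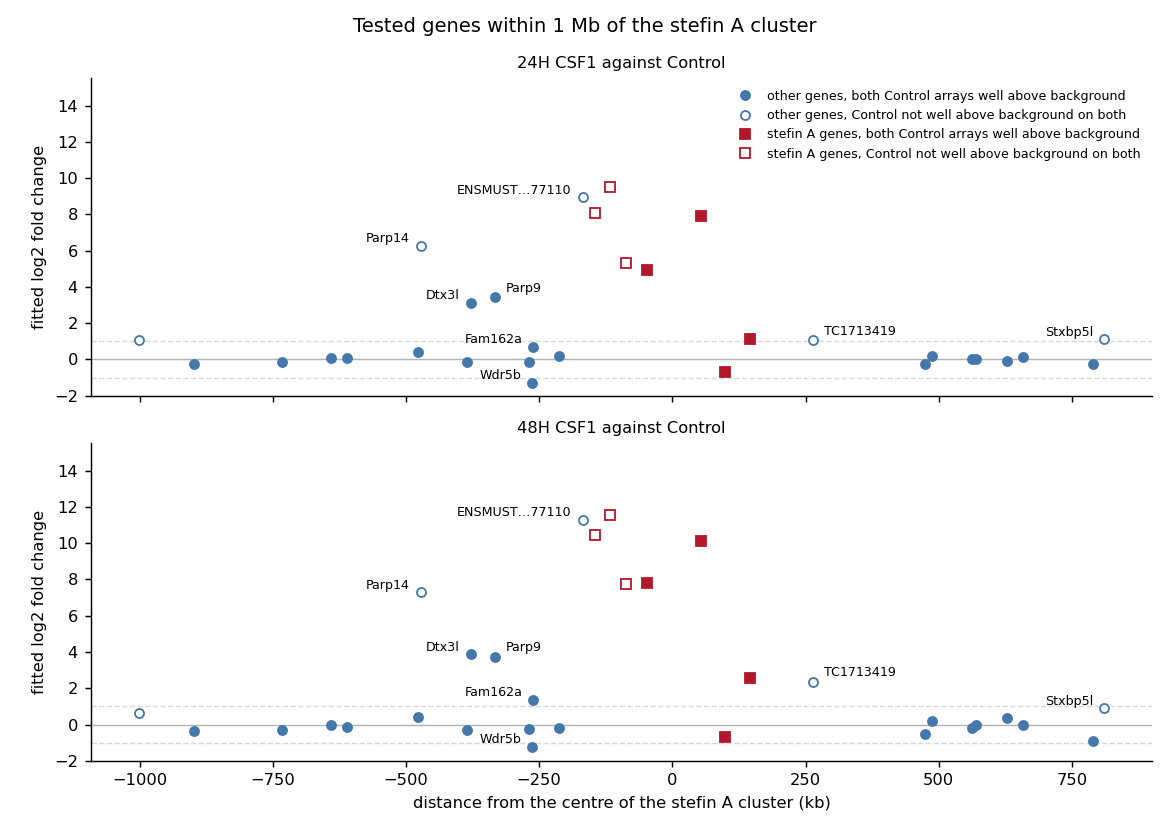
Fitted log2 fold change against Control at 24 h (upper panel) and 48 h (lower panel) by distance from the centre of the cluster, for stefin A genes (squares) and other genes within 1 Mb (circles); open symbols had a Control array not well above background, and dashed lines mark 2-fold. Large increases sit in the cluster, at ENSMUST00000077110 and at Parp14, Dtx3l and Parp9, while most other genes lie near 0.

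The papain-like proteases and relatives with a measurable signal, not all of them targets of stefins, showed smaller fold changes than the 5 strongly higher stefins. That difference was not tested. Of 21 papain-like proteases and relatives listed, 11 were tested. At 24 h Ctsm was called higher and Tinagl1 lower, and at 48 h 5 were called higher, namely Ctss, Ctsh, Lgmn, Ctsb and Ctsl, and 0 lower by limma. After normexp with the 75th percentile the 48 h values of Ctss (0.78) and Ctsh (0.84) and the 24 h value of Ctsm were below 2-fold and not called. The median log2 fold change of the 11 was 0.78 at 24 h and 0.31 at 48 h, beside 0.04 and -0.04 over all genes.

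Ctsb, which encodes the lysosomal cathepsin B, read 6.20 and 6.56 in Control, 7.14 and 7.18 at 24 h and 7.48 and 7.68 at 48 h, a log2 fold change of 0.78, not called, and 1.20 (adjusted p = 0.0129 by limma). Ctsl, cathepsin L, gave 0.79, not called, and rose by 1.17 (adjusted p = 0.0055). Ctsh, an aminopeptidase of the same family, gave 0.94, not called, and rose by 1.30 (adjusted p = 0.0114). For these 3 genes every stimulated array lay above both Control arrays.

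Ctss, cathepsin S of antigen-presenting cells, was well above background on the 48 h arrays alone, at -3.04 and -2.42. It was at least 4.0-fold higher there than in Control (adjusted p = 0.0074 by limma). Lgmn, the asparaginyl endopeptidase legumain, which the stefins are not known to block, gave 0.99, not called, and rose by 1.23 (adjusted p = 0.0050). Tinagl1, a relative without protease activity, fell by 1.60 at 24 h (adjusted p = 0.0043) and differed by -0.81 at 48 h, not called. Ctsm, a placental cathepsin, was at least 1.98-fold higher at 24 h, where it alone was above background.

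Other inhibitors were taken from a list of cystatins and their relatives, Ctla2 genes and Serpinb3 serpins. Of 22 listed, 11 were tested and 2 were called higher at each time, 0 lower by limma. These 2 were Ctla2b, with 1.67 and 1.87 in Control, then 3.69 and 4.12 at 24 h, then 4.60 and 4.98 at 48 h, and Ctla2a. Both encode inhibitors that resemble the propeptide of cathepsin L rather than a cystatin. Their log2 fold changes were 2.13 and 3.02 for Ctla2b and 2.0 and 2.99 for Ctla2a (adjusted p between 0.0020 and 0.0060 by limma).

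Cstb, the stefin B gene and the closest relative of the family outside the cluster, read 4.73 and 4.70 in Control, 4.86 and 4.88 at 24 h and 4.83 and 5.23 at 48 h. Its log2 fold changes of 0.15 and 0.31 were not called (adjusted p = 0.58 and 0.25 by limma). Cst3, the secreted cystatin C, gave -0.33 and -0.32, not called. The median over the 11 was 0.18 at 24 h and 0.24 at 48 h.

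**Figure D4:**
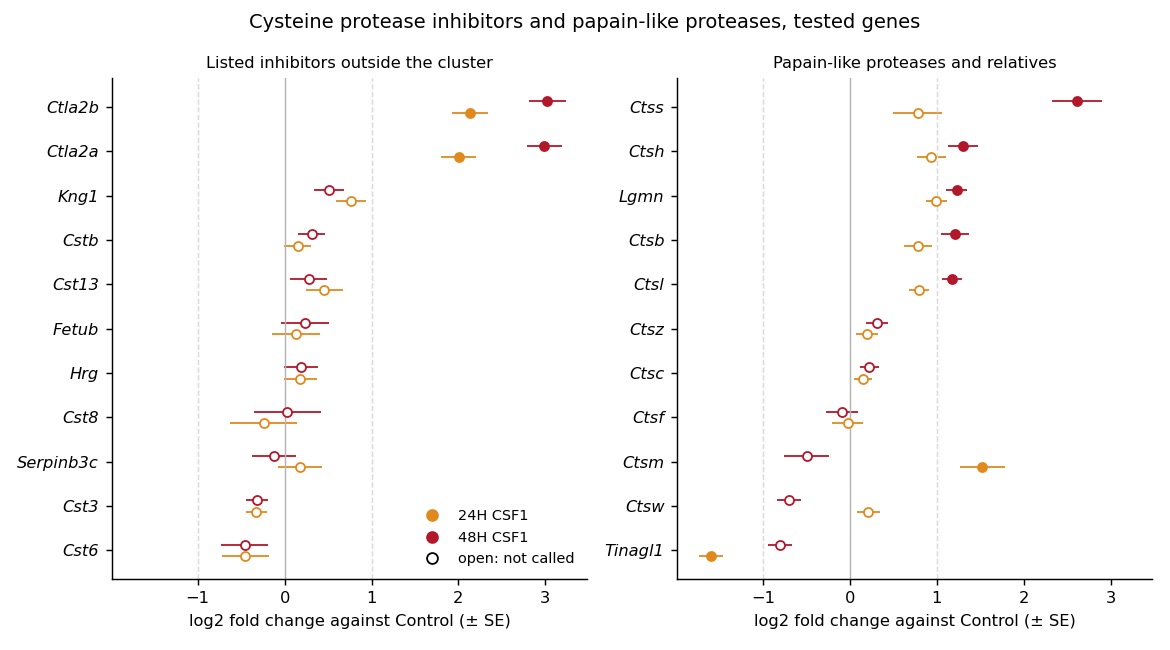
Log2 fold change against Control with its standard error for the tested inhibitors outside the stefin A cluster (left) and the tested papain-like proteases and relatives (right), at 24 h and 48 h; filled points were called. Ctla2a and Ctla2b lie beyond 2-fold at both times, and Ctss, Ctsh, Lgmn, Ctsb and Ctsl at 48 h. Ctss and Ctsm were not well above background in Control, and their fitted values are no bounds.

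Stefin A is also a cornified envelope protein, and of 50 envelope genes listed 26 were tested. At 24 h 7 were called higher and 2 lower, and at 48 h 7 higher and 1 lower. Over all genes tested, 5.86% and 4.66% were called higher and 1.82% lower at each time. Sprr2h, a small proline-rich envelope protein, rose by 4.43 and 6.16, and Sprr2d was at least 2.87-fold and 23.5-fold higher. Lce1i and Lce1g, late cornified envelope genes, were called higher at both times with unlike replicates and an adjusted p between 0.0895 and 0.134 by limma. The median of the list was 0.11 and 0.09.

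Stefin A copies are known from neutrophils, so that markers of other cell types were set beside these values. Of 30 neutrophil markers, 18 were tested; 1 (Lcn2) was called higher at 24 h, and 2 (Chil3 and Hp) were called lower at 48 h. The summed signal of the 29 on the array lay between 171 and 194 times the 75th percentile in Control, 167 and 171 at 24 h and 168 at 48 h on both arrays. Most of it came from Csf3r, Elane and Itgam, and what these 3 probes measure in this line was not tested. Without them it lay between 8.53 and 8.89 in Control, 11.2 and 11.9 at 24 h, and 9.53 and 10.4 at 48 h. Between 15 and 22 of the 29 were well above background on each array. Camp, Chil3, Ctsg, Fcnb, Hp, Itgb2, Lcn2, Mcpt8, Padi4, Prtn3, Ptprc and Trem1 were so on all 6. Csf3r, Elane and Itgam were also well above background on all 6, each at 4.40 or more. Mpo, Lyz2, Mmp8, Mmp9 and Gfi1 were so on no array, and S100a8 and S100a9 on 1 of 6. Whether cells of this kind had a part in the stefin signal was not tested.

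Of 28 macrophage markers, 12 were tested and 3 called higher at each time. Mrc1, a mannose receptor, rose by 4.27 and 3.56, Mertk, a receptor for apoptotic cells, by 1.27 and 1.34, and Mpeg1, a pore-forming protein, gave 0.95, not called, and rose by 3.12. Siglec1, a sialic acid receptor, was at least 2.22-fold higher at 24 h and was not called at 48 h. The summed signal of the 27 on the array lay between 37.3 and 42.5 in Control and between 43.2 and 53.2 in stimulated cells, most of it from Csf1r, the gene brought in by the retrovirus. Without Csf1r it lay between 7.47 and 7.98 in Control and between 12.8 and 13.4 on the 4 stimulated arrays, so that the groups did not overlap. The part of such cells in the stefin signal was not tested. Spi1, C1qc, Cd163, Timd4 and Vsig4 were well above background on no array. Of the 9 prostate epithelial markers tested, 1 was called higher at each time, Krt18 at 24 h (at least 1.86-fold) and Krt8 at 48 h (1.98). In such a culture, more cells with a transcript and more transcript per cell cannot be told apart.

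Among 835 genes outside the family called higher at both times, the 5 whose level followed the mean of the 7 tested stefins most closely over the 6 arrays were Sash1, AA467197, Gch1, Irf7 and Phf11, with a Pearson r between 0.9985 and 0.9989. Of the 835, 350 had an r above 0.95, and the points share arrays and group differences. Sash1, a scaffold protein, read -3.99 and -3.76 in Control, -1.86 and -1.86 at 24 h and -1.17 and -0.94 at 48 h. Gch1, the first enzyme of tetrahydrobiopterin synthesis, rose by 2.90 and 4.03, and Irf7, an interferon regulatory factor, by 3.67 and 4.91. AA467197 was at least 46.5-fold and 184-fold higher, and Phf11, a PHD finger protein, rose by 4.59 and 6.48.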

How the data were processed

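The authors deposited, for each of 6 arrays, the Agilent Feature Extraction 11.0.1 output, whose processed signal is a background-subtracted intensity, and log2 values of a subset of probes, with scaling not stated, used as an alternative. Their comparison software is named without its normalization. Outlier spots were dropped, spots of one probe were averaged, and the 75th percentile of the array was subtracted from the log2 signal. The brightest probe stood for a gene; 36028 genes had a usable probe, and 24643, well above background on both arrays of a group, were tested with limma 3.58.1 in R 4.3.3 (lmFit, eBayes, 2-sided, all 6 arrays in 1 fit, 3 residual and 2.39 prior degrees of freedom). Calls needed an unadjusted p-value under 0.05 and at least 2-fold; adjusted values are Benjamini-Hochberg over all 24643 genes. Replicate arrays correlated at r between 0.9926 and 0.9936 across genes. The number of arrays limits the precision. The fit was tested on simulated data.

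The members, the 6 gene lists and the genes named were chosen with earlier results of these data known. Named were all members, Cstb, Ctsb, Ctsh, Ctsl and Ctss, and up to 4 called genes per list with the largest mean change. The 3 nearest tested neighbours on each side, every called one within 1 Mb and the 5 genes of closest likeness were also named. Ctsm, Cst3, Casr, Cd86 and markers given only as at or above background were added after their values were seen. Names were matched to RefSeq (15627 of 24643 genes). Sequences were aligned with Biopython 1.88.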

Additional observations from a re-analysis of the deposited data

Results flagged for a closer look

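For 18 genes named in the text above, the difference from Control was unlike at the 2 times by a direct comparison of 48 h with 24 h (limma, unadjusted p under 0.05 and at least 2-fold). None of the 18 passed after adjustment over all genes (adjusted p between 0.104 and 0.179), and 0 of all 24643 genes did, against 3355 at an unadjusted p under 0.05. The 6 stefin A genes had the log2 fold changes of 2.87 (2010005H15Rik), 2.42 (Gm5416), 2.36 (Stfa2l1), 2.24 (BC100530), 2.04 (Gm5483) and 1.47 (Stfa3), each higher on both 48 h arrays than on both 24 h arrays. The neighbouring ENSMUST00000077110, whose probe resembles that of Stfa2l1, gave 2.34. The genes of closest likeness gave 1.98 (AA467197), 1.89 (Phf11), 1.24 (Irf7) and 1.12 (Gch1).

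Among the listed genes, Sprr2d gave 3.03, Mpeg1 2.17, Ctss 1.83 and Krt8 1.24. Ctsm gave -2.02, Siglec1 -1.47 and Lcn2 -1.04, so that these 3 genes were lower at 48 h than at 24 h. The fitted values of Ctss, Ctsm and Siglec1 are no bounds, since the dimmer group was not well above background on at least 1 of its arrays; Ctss was at least 3.04-fold higher at 48 h, and Ctsm at least 1.90-fold and Siglec1 at least 2.06-fold lower.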

How the results depend on the processing

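Between 5 and 7 stefin A genes were called in each of the 3 comparisons under the alternatives run, with these exceptions. A signal well above background on every array left 4 members tested and 3 calls in each comparison, with medians of 3.03, 5.20 and 1.86 (24 h, 48 h and 48 h against 24 h). The methods' t-test gave 4 calls for 48 h against 24 h. The median at 24 h was 4.98 with quantile normalization, 4.51 after normexp with either scaling, 4.94 with no filter on dim probes and 6.05 with the slide as a block, which equals leaving out the array alone on its slide. At 48 h it was 7.32 and 7.25 after normexp with the 75th percentile and quantile normalization, and for 48 h against 24 h 1.77 with the slide block. Leaving out each replicate gave medians from 4.76 to 6.05, from 7.66 to 8.14 and from 1.77 to 2.49, and 6 calls each. Stfa2 at 48 h against 24 h turned to 0.041 (quantile), 0.18 (median centring), 0.037 (normexp, quantile), 0.0012 (the authors' values) and 0.093 (slide block), and ranged from -0.11 to 0.093 with a replicate left out. Against Control it ranged from -1.44 to 0.034 at 24 h and from -1.45 to 0.027 at 48 h, the ends being the fits without Control replicate 1 and without Control replicate 2.

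Papain-like proteases called at 24 h numbered 1 after normexp with the 75th percentile, with all 6 arrays well above background and with the methods' t-test, 5 with no filter, and from 2 to 4 with a replicate left out (4 without Control replicate 2). At 48 h they numbered 3 after normexp with either scaling, without Ctss and Ctsh. Neighbours called at 24 h numbered 4 after normexp with either scaling and 2 with all 6 arrays well above background (3 at 48 h). Over all genes, calls in both directions numbered 1893, 1597 and 560 in the 3 comparisons at the main setting, 875, 894 and 162 after normexp with the 75th percentile, 844, 880 and 174 with quantile, 3270, 2030 and 1352 with no filter and 1101, 1101 and 187 with all 6 arrays well above background; for 48 h against 24 h they were also 251 with the methods' t-test and 857 for every probe on its own. The cause of these shifts was not tested. Deviations of equally numbered arrays correlated at 0.13, 0.09 and 0.20, not all above 0.1, so that the numbers were not taken as pairs; whether they mark the 2 experiments is not given by the labels. A replicate block kept 6 member calls in each comparison, with medians of 5.34, 7.81 and 2.24.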

Other observations

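The Sprr2 genes, another family of mouse tandem copies and like stefin A part of the cornified envelope list, also differed among themselves. Sprr2e, named here after its values were seen, as are those that follow, read -2.10 and -1.65 in Control, -1.50 and -0.58 at 24 h and 1.87 and 1.48 at 48 h, a log2 fold change of 0.83, not called, and 3.55 (adjusted p = 0.0055 by limma). Sprr2g was at least 8.39-fold higher at 48 h than in Control (adjusted p = 0.0169 by limma). Sprr2k was at least 4.79-fold lower at 24 h (adjusted p = 0.0184 by limma) and gave -1.67 at 48 h, where it was called lower with an adjusted p of 0.0634. Sprr2a2 gave -0.15 and -0.16, not called. How far transcripts of one Sprr2 copy add to the signal of another was not tested.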
